A study of Drosophila melanogaster with 2 samples.

Results

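CHES-1-like and CG1677 are protein-coding genes of the Drosophila melanogaster X chromosome that held many sites of Rx-eGFP binding in whole embryos. Both were chosen by a measured value, their high number of peak summits in the main peak list, so their counts are a description with no test. A peak was taken as a member when its summit lay in either gene or within 10 kb of it. That rule took 29 of the 3250 main-list peaks on the chromosome arms (3303 with unplaced scaffolds), of which 13 lay at CHES-1-like and 16 at CG1677.

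ChIP-seq was carried out in whole embryos aged 0 to 24 h from a strain whose transgene makes the homeodomain protein Rx fused to eGFP, and the fusion was precipitated through GFP. The only group had 2 biological replicates of the same genotype, age and treatment, and sex was not collected. Chromatin was sonicated to a size range of 200 to 800 bp. A control experiment that the labels mention was not analysed here, so no untagged embryos stand beside these values. The age range spans all of embryogenesis and every tissue, so a peak cannot be placed in a cell type or stage, and the sources used here do not say whether these embryos kept unmodified Rx beside the tagged form.

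Rx is a paired-class homeodomain transcription factor that acts in head and brain development, and such factors bind short words built around TAAT, alone or as a palindrome of TAAT and ATTA. CHES-1-like encodes a forkhead transcription factor that is known, with the related factor jumu, for its part in the division and fate of cardiac progenitor cells. CG1677 is annotated in RefSeq as an uncharacterized protein, and its long intron encloses other genes, among them brk, which encodes Brinker, a repressor of genes that respond to the BMP ligand Dpp.

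The 4 thresholded lists and the 4 longer ranked lists were used. The main list is the thresholded list of the whole series that its name calls conservative. Peak height is the authors' signal value, on a scale that is not stated, and the score is the authors' whole-number score from the irreproducible discovery rate (IDR), at least 830 in every thresholded list. Sequencing depth is unknown, as the files hold no read counts. Intervals are 95% Wilson intervals and cover counting error only. The main list was made from the same replicates as their own lists, so its presence in them is no independent check, and peaks along a gene are not replicates.

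CHES-1-like (FBgn0029504, X:7682338-7709385 on dm6, minus strand) is 27.0 kb long, and CG1677 (FBgn0029941, X:7281089-7405797, minus strand) is 125 kb long. The peaks of each gene are numbered below by rising coordinate, which runs against the direction of transcription. The sequences below are 201 bp windows centred on summits, read on the plus strand of the Release 6 reference genome from RefSeq. The first pair holds the highest peaks of CHES-1-like, and the next pair the highest peaks of CG1677. Capitals mark TAATTA, the palindromes of TAAT and ATTA separated by 2 or 3 bases, and the words ACAGTG and ACACTG with AGTGTA and GTGCAC as well as ACTGTA, which an earlier account of these data found enriched at summits. All words were searched on both strands.
CHES-1-like peak 6: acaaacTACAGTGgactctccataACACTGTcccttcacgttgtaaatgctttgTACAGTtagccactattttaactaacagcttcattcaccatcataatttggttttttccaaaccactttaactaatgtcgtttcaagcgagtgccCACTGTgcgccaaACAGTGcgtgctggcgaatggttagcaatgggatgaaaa
CHES-1-like peak 12: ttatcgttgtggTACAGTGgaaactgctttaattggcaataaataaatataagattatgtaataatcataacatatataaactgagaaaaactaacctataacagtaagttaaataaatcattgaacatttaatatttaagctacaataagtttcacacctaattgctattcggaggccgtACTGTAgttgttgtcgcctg
CG1677 peak 16: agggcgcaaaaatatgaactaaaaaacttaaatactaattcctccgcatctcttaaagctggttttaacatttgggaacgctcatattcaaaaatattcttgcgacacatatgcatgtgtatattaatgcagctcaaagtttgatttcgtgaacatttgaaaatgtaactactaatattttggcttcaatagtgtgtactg
CG1677 peak 3: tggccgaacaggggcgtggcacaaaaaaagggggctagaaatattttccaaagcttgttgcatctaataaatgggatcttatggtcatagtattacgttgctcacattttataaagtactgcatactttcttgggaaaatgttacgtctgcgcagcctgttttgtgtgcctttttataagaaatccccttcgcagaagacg
The windows lie at X:7700317-7700517, X:7706889-7707089, X:7336970-7337170 and X:7293181-7293381 in that order. CHES-1-like peak 6 holds ACAGTG at 4 places, ACTGTA at 2 and ACACTG at 1, and some of these overlap. CHES-1-like peak 12 holds ACAGTG at 1 place and ACTGTA at 2. Neither of the CG1677 windows holds any of the words in capitals, although their peaks rank with the highest of the gene.

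The following windows are shown because they hold TAATTA or, in CG1677 peak 12, both palindromes. They lie at X:7703298-7703498, X:7307073-7307273 and X:7324915-7325115.
CHES-1-like peak 8: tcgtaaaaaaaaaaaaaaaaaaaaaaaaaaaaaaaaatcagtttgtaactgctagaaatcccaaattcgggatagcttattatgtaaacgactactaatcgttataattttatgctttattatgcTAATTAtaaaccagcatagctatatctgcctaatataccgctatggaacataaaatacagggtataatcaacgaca
CG1677 peak 10: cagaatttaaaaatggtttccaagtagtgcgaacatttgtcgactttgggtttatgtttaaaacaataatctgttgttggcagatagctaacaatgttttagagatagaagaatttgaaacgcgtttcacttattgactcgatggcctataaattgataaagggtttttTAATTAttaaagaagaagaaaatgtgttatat
CG1677 peak 12: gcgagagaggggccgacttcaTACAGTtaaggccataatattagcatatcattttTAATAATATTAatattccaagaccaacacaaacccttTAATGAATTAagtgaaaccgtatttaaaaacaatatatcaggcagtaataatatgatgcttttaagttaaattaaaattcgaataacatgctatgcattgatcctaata
TAATTA occurs in CHES-1-like peak 8 and in CG1677 peak 10. CG1677 peak 12, inside the nested gene Dok, holds both palindromes, with spacers of 2 and 3 bases. CG1677 peak 15 also holds the palindrome with 3 bases and is not printed.

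All 13 CHES-1-like summits lay inside the gene, and none in the 10 kb on either side. They covered 17.4 kb, from X:7691685 to X:7709082, and every one lay upstream of the start of the coding sequence at X:7689995. The gene has 4 annotated transcripts that share this coding sequence and begin at different first exons. The first intron of the longest, CHES-1-like-RC, is 18998 bp long and held 12 of the summits. The summit outside that intron lay 303 bp downstream of the RC start. The nearest main-list summits outside the window stood 15.6 kb from the gene on one side (X:7666772, signal 67.4) and 25.3 kb on the other (X:7734689, signal 59.1).

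**Figure D1:**
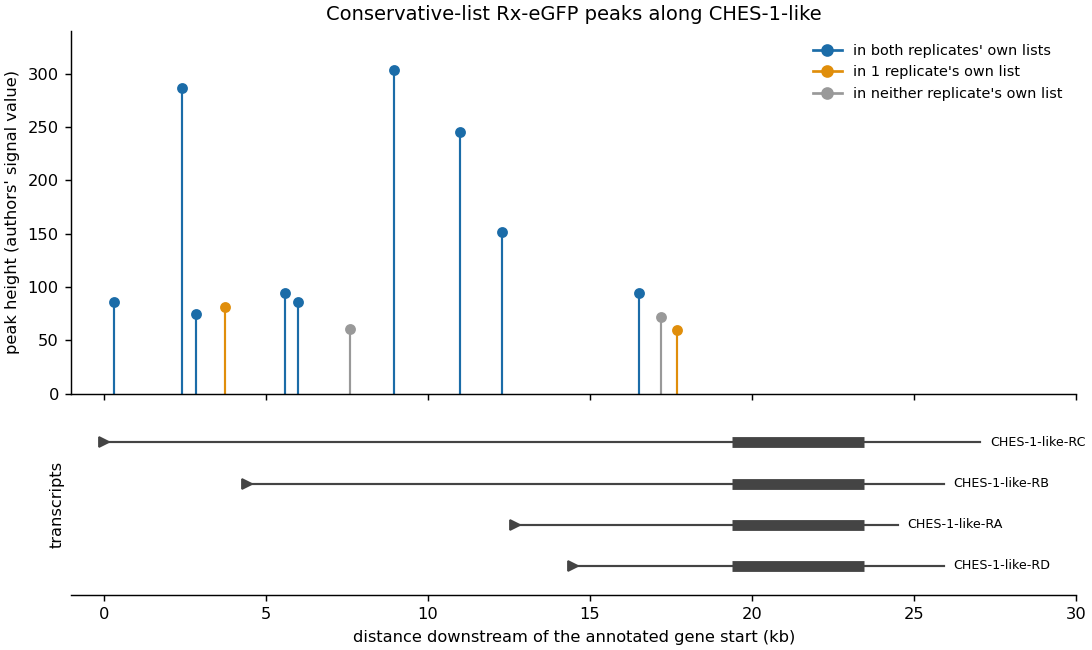
Main-list peaks along CHES-1-like, with distance from the annotated start in kb on the x axis and the authors' signal value on the y axis, above the 4 transcripts (arrowheads are starts, thick bars the coding span). Stem colour gives presence in the replicates' own lists, and all 13 summits stand left of the coding span, with peaks above 200 between the first and the third start.

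The highest CHES-1-like peak, peak 6 at X:7700417, had a signal of 303.8 and ranked 186 of the 3250 arm peaks. Its height was 144.8 in replicate 1 and 155.4 in replicate 2. Peak 12 at X:7706989 had a signal of 286.6, with 173.6 in replicate 1 and 118.3 in replicate 2. Both stood within the first intron and away from any start, peak 6 at 3.71 kb and peak 12 at 2.03 kb upstream of the nearest one. Peak 5 at X:7698417 reached 245.7 and was uneven between replicates, at 151.3 and 80.3. It lay 1.71 kb upstream of the RA start. Peak 4 at X:7697103 had 151.8, with 76.7 and 75.8 in the replicates, and stood 399 bp upstream of the same start, which makes it 1 of the 2 CHES-1-like summits in a promoter (within 500 bp of a start). These 4 peaks were called in the own lists of both replicates.

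The other 9 CHES-1-like peaks were lower, between 60.0 and 94.9. Peak 13, the promoter peak of the RC transcript, had 86.1, with 63.4 in replicate 1 and 33.6 in replicate 2. Peaks 5 and 13 shared the largest difference between replicates among the members, each with a log2 ratio of replicate 2 to replicate 1 near -0.91. Peak 8 had 86.1 (40.5 and 50.03 in replicates 1 and 2) and peak 9, 402 bp away, had 94.9 (43.2 and 53.8). This pair was higher in replicate 2, and the summit of peak 8 lies 58 bp from an annotated copy of the transposable element jockey (X:7702962-7703340). Peak 8 as called (X:7703256-7703539) overlaps this copy, and so does its printed window. Peak 11 had 74.9 (38.0 and 42.9) and peak 3 had 94.1 (44.6 and 46.0), both even between replicates. Peak 10 had 81.6, with 50.5 in replicate 1 and 27.2 in replicate 2, and was in the own list of replicate 1 alone. It stood 675 bp upstream of the RB start. The pair farthest from the RC start was less firm. Peak 1 had 60.0 (28.1 and 30.1) and was called in replicate 2 alone, while peak 2 had 72.4 (41.2 and 31.7) and was called in neither. Peak 7, with 60.5 (32.0 and 27.6), was also called in neither.

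CG1677 differs from CHES-1-like in that its summits lie among other genes. All 16 lay inside the annotated gene, spread over 50.8 kb from X:7286260 to X:7337070, and all lay in the second intron of the long transcript CG1677-RB, which is 73902 bp long. RB starts at X:7405797, and its start stood 68.7 kb from the nearest summit. The remaining transcripts of CG1677 span only X:7281089-7286195, or 5107 bp. No summit lay inside that span and 5 lay within 10 kb of it, so the count of 16 rests on the annotation of the long transcript. All 16 lay upstream of the coding start at X:7284714, and all also lay in the long non-coding RNA gene lncRNA:CR44357 (X:7166451-7405797), so a host gene cannot be assigned from position.

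Protein-coding genes nested in CG1677 number 13. By nearest transcription start, 5 of the 16 summits belonged to unc-119, 4 to brk, 2 each to CBP and CG42780, and 1 each to Atg5, Dok and CG1677 itself. The stretch of 16.6 kb between unc-119 (a relative of a Caenorhabditis elegans gene needed in its nervous system) and brk held 9 summits. The stretch of 5.16 kb between CG42780, an uncharacterized gene, and CBP, which RefSeq names a sarcoplasmic calcium-binding protein, held 4. Both stretches lie between the nested genes and not in them. Only Atg5, an autophagy gene, and Dok, an adaptor protein gene, contained a summit.

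**Figure D2:**
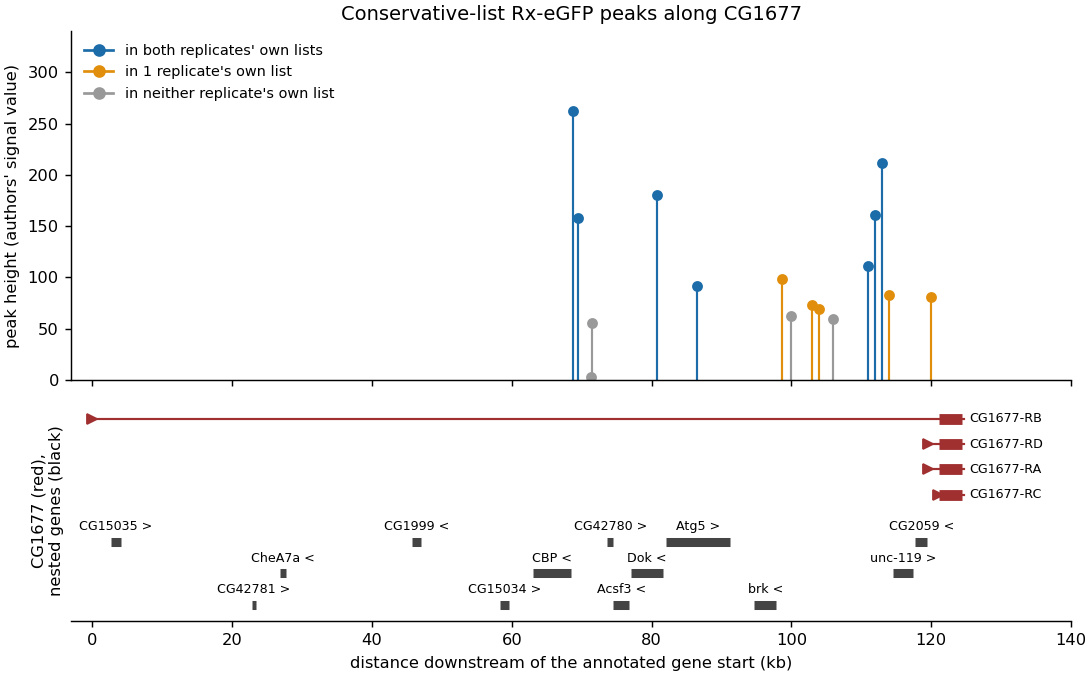
Main-list peaks along CG1677, with distance from the annotated start in kb on the x axis and the authors' signal value on the y axis, above the transcripts of CG1677 (red) and the 13 nested protein-coding genes (black, with their strand relative to the plotted direction). The 16 summits fill the far part of the gene, and the first 68.7 kb hold none.

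The highest CG1677 peak was peak 16 at X:7337070, 0.282 kb upstream of the start of CBP, with a signal of 262.2. It reached 136.6 in replicate 1 and 126.7 in replicate 2. Its neighbour peak 15, at 1.04 kb upstream of CBP, had 157.9, with 94.4 and 64.4. The CBP side thus held a pair of peaks called in both replicates. Peak 3 at X:7293281 had 211.9 (123.8 in replicate 1 and 90.9 in replicate 2), peak 4 had 161.0 (93.8 and 63.6) and peak 5 had 111.3 (66.1 and 49.5). These form a run 1.98 to 3.0 kb upstream of unc-119, each called in both replicates and each higher in replicate 1. Peak 12, in Dok at X:7325015 and 801 bp downstream of its start, had 180.2, with 96.2 and 85.3. Peak 11, in Atg5, had 92.0, with 46.0 and 44.0, and these were the members of the nested genes themselves.

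The peaks upstream of brk were lower. Peak 10 lay 0.766 kb before the brk start and had 98.5, with 53.4 in replicate 1 and 37.7 in replicate 2. Peaks 7, 8 and 9 lay 6.01, 5.36 and 2.05 kb before it, with signals of 69.7, 73.0 and 62.0. Their replicate heights were 43.8 and 27.0, 35.3 and 39.9, and 29.9 and 27.4. None of the 4 brk peaks was called in replicate 2, and all but peak 9 were called in replicate 1. Peak 6, with 59.4 (36.0 and 28.3), lay between the brk and unc-119 groups and was called in neither replicate. Peak 2, with 83.3 (50.6 and 33.2), lay 0.717 kb upstream of unc-119 and was called in replicate 1 alone.

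Peak 1 was the only summit at a start of CG1677 itself. It stood 65 bp upstream of the start at X:7286195, between it and the start of the divergent gene CG2059 at X:7286358, a gene named after its value was seen. It had 80.9 and was 1 of 2 CG1677 peaks higher in replicate 2 (27.7 and 45.8). It was called in replicate 2 alone. Peaks 13 and 14, upstream of CG42780, are 200 bp apart and overlap, match the same replicate peaks (32.9 and 25.1) and share 1 score of 912. Their signals were 56.0 and 2.7, so 15 distinct pairs of replicate peaks stand behind the 16 entries. Neither was called in a replicate's own list.

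The 68.7 kb of CG1677 from beyond peak 16 to the RB start held 0 main-list summits. There were 85 peaks of its parent ranked list there, at 1.24 per kb, with signals up to 45.4 and scores up to 266. Weak ranked peaks therefore occurred there, at scores far below the 830 of thresholded peaks.

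In the ranked list from which the main list was taken, 34 peaks lay at CHES-1-like and 177 at CG1677, each with its 10 kb on both sides. Of these, the main list kept 38.2% at CHES-1-like and 9.04% at CG1677, against 2.39% of all ranked peaks on the arms. The genes were picked on this list, so nothing is read from that difference. The other series-wide thresholded list kept 12 summits at CHES-1-like and 16 at CG1677, or 35.3% and 9.04% against 2.49%. Replicate 1 kept 10 of 23 and 11 of 120, or 43.5% and 9.17% against 2.44%. Replicate 2 kept 10 of 36 and 8 of 146, or 27.8% and 5.48% against 1.92%. The replicates' lists are made from the reads that also made the main list, so these are descriptions as well. The density of ranked peaks was 0.723 per kb at CHES-1-like and 1.22 at CG1677, against 0.988 over the arms, so ranked peaks were sparser at CHES-1-like and denser at CG1677 than over the arms.

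The lists placed their peaks at nearly the same sites at CHES-1-like. Joining summits within 100 bp over the 4 thresholded lists gave 13 sites there, of which 9 were in all 4 lists. At CG1677 the same joining gave 19 sites, of which 7 were in all 4. The sites that were not in all 4 lists had main-list signals of at most 98.5 (CG1677 peak 10, missing from replicate 2). The other series-wide list lacked peaks 6, 13 and 14 of CG1677 and peak 1 of CHES-1-like, and had CG1677 sites of its own at X:7286461 (2.9), X:7300466 (46.0) and X:7300669 (3.6).

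In the main list, scores of kept and left-out peaks stood well apart at both genes. At CHES-1-like the lowest score kept in the main list was 986 (peak 7) and the highest left out was 783 (X:7709283, signal 33.7). At CG1677 the lowest kept was 912 and the highest left out was 692 (X:7271785, signal 46.9). Other lists had narrower gaps. In the other series-wide list at CG1677 the lowest kept score was 841 and the highest left out 804 (peak 6). In replicate 1 at CHES-1-like a peak with a score of 827, at peak 7, was left out just under the threshold.

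Of the 29 member peaks, 16 were in both replicates' own lists, or 55.2% (37.5% to 71.6%), against 50.6% (48.9% to 52.4%) of all arm peaks and 46.3% of all intron peaks. The interval of the members includes both shares, but it takes peaks as independent, which peaks along a gene are not. No difference was tested. A further 5 were called in replicate 1 alone, 2 in replicate 2 alone and 6 in neither. Those in neither include CG1677 peaks 13 and 14, which match the same replicate peaks but are counted separately. By gene the count was 9 of 13 at CHES-1-like (69.2%, 42.4% to 87.3%) and 7 of 16 at CG1677 (43.8%, 23.1% to 66.8%). The same limit holds for these intervals, so nothing is read from their overlap.

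Member peaks had a median height near that of the arms. Their median signal was 86.1, with quartiles of 72.4 and 157.9. Over the arms the median was 90.1, with quartiles of 64.6 and 145.8, and the upper quartile of all intron peaks was 130.3. The highest 25% of arm peaks held 9 of the 29 (31.0%), and 19.5% of all intron peaks. The median of the members was thus not high beside that of the arms, while their upper quartile lay above that of the arms. The 4 member peaks narrower than the most common peak width were also the highest 4, at 245.7 to 303.8, while the wider ones reached at most 211.9. Over the arms, narrow peaks likewise had a higher median signal than the others, 284.2 against 81.6.

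CG1677 peaks were mostly higher in replicate 1. The median log2 ratio of replicate 2 to replicate 1 height was -0.39 over the 15 distinct replicate pairs of CG1677 (SD 0.37), and 13 of the 15 were higher in replicate 1. At CHES-1-like the median was -0.02 (SD 0.46) with 7 of 13 higher in replicate 1. Over the arms the median was -0.10 and 58.6% were higher in replicate 1. Every member pair agreed within a factor of 2, and with 2 replicates of unknown depth this lean could not be tested.

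**Figure D3:**
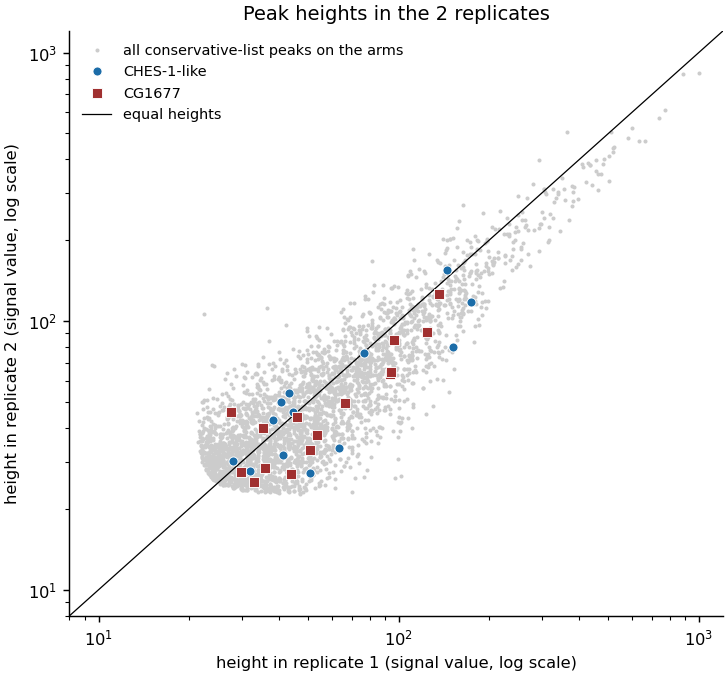
Height of each main-list peak in replicate 1 (x axis) and replicate 2 (y axis), as the authors' signal value on log scales, for CHES-1-like (circles), CG1677 (squares) and all arm peaks (grey), with the line of equal heights. Member peaks lie inside the grey cloud, and most squares fall below the line.

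By position, 25 of the 29 members (86.2%) were in introns away from starts and 4 (13.8%) in promoters. None was in a coding exon or outside every annotated gene. At CG1677 most intron calls rest on the long transcript CG1677-RB or on lncRNA:CR44357, since most summits there lie between the nested genes. Over the arms 42.7% were in promoters and 37.0% in introns. On X the promoter share was 36.7%, and 320 of the 640 peaks there were in introns. The rule takes summits in or beside genes with long introns, so the members' intron share partly follows from it, and no test was made.

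Summits were close together. The median gap was 1338 bp over the 12 gaps of CHES-1-like and 1841 bp over the 15 gaps of CG1677, against 15535 bp over the arms and 12707 bp on X. The longest CHES-1-like gap was 4229 bp. The longest at CG1677 was 12.1 kb, between the brk and Atg5 peaks. These gaps follow from the choice of dense genes and are given as a description.

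Among 13968 protein-coding genes, 1313 held at least 1 main-list summit, 43 at least 5 and 4 at least 10. The most were in kirre, an adhesion protein gene of myoblast fusion, with 21, followed by CG1677 with 16 and CHES-1-like with 13. Just below came Raf, the kinase of the MAP kinase cascade, with 10, and Hr4, a nuclear receptor gene of the ecdysone response, with 9. All 5 lie on X. Length separates them. Per 10 kb of gene, CHES-1-like held 4.81 summits, Raf 2.07, Hr4 1.36, CG1677 1.28 and kirre 0.53, where kirre is 394 kb long. CHES-1-like was second in density among the 43 genes with at least 5 summits, and CG1677 was 22nd.

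The genes closest to CHES-1-like in summit density were HmgZ (4.82 per 10 kb), CG14434 (4.58), which is uncharacterized, and HmgD (3.27). HmgZ and HmgD encode HMG-box chromatin proteins, overlap each other on 2R and share summits. The genes closest to CG1677 were tou (1.30), a chromatin protein gene, bol (1.36), an RNA-binding protein gene of meiosis, and mew (1.36), an integrin gene. Each of these 6 held only 5 to 7 summits. Of 688 genes within a factor of 1.5 of the length of CHES-1-like, 416 had no summit and the highest count was 8. Of 116 genes of a length like that of CG1677, 47 had none and the highest count was 7. So both genes exceeded every gene of like length, which is what they were picked for.

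**Figure D4:**
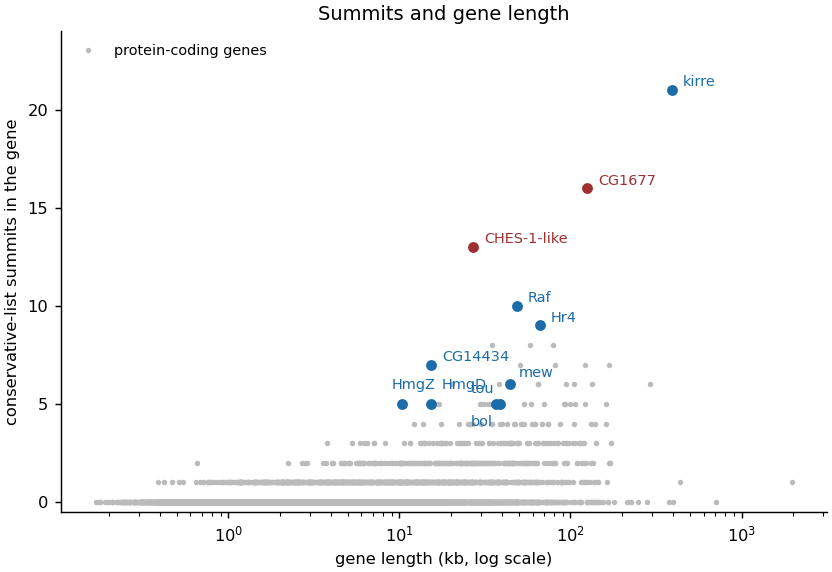
Main-list summits in each protein-coding gene (y axis) against gene length in kb on a log scale (x axis), with CHES-1-like and CG1677 in red, the genes named for comparison in blue and other genes in grey. CHES-1-like (13) and CG1677 (16) stand above all genes of similar length, and kirre (21) is the one gene with more than CG1677.

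The member windows were not copies of one another. None of the 29 matched another at 80% identity or more over at least 101 bp, and the longest alignment at that identity was 30 bp. None of the 3250 arm windows matched another within 50 kb either, where the longest alignment was 40 bp. The windows were rich in A and T. Median GC content was 32.3% (range 24.9% to 49.3%) against 36.3% at arm summits, and against 37.3% and 40.3% in 201 bp tiles across the CHES-1-like and CG1677 regions. Soft-masked sequence made up a median of 27.9% of member windows and 18.9% of all arm windows.

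Words of the homeodomain were in few member windows. TAATTA was in 2 of 29 (6.90%), against 11.8% of 51 windows placed 1000 bp to either side of the members, clear of main-list peaks, and 15.4% of all arm summit windows. The palindrome with a spacer of 2 bases was in 1 window (3.45%), against 0% beside the members and 2.15% of arm summits. The one with 3 bases was in 2 windows (6.90%), against 3.92% and 2.71%, so these few palindromes, all at CG1677, lay above their arm shares while TAATTA lay below. TAATCC, a word of another homeodomain class, was in 1 window, at CHES-1-like (3.45%, against 11.8% and 5.75%). No match means only that these letters were not in this window.

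The words found enriched at summits of the whole series were common at both genes when counted together. At least 1 of the 5 was in 19 of 29 windows (65.5%), 9 at CHES-1-like and 10 at CG1677, against 53.0% of arm summits, 58.8% of intron summits and 21.6% of the windows beside the members. Tiles across the regions held one in 26.5% (CHES-1-like) and 26.8% (CG1677). The members are among the peaks on which these words were found, so this is not independent of that account. The single words did not all go the same way. ACTGTA was in 10 windows (34.5%, against 15.3% of arm summits), ACAGTG in 9 (31.0%, against 22.0%) and GTGCAC in 5 (17.2%, against 10.2%). ACACTG and AGTGTA were in 2 windows each (6.90%), below their arm shares of 19% and 17.9%. Read on the opposite strand, ACTGTA is TACAGT, which overlaps ACAGTG in the longer word TACAGTG. That longer word, looked for after its copies in the printed windows were seen, was in 6 members (20.7%), 4 of them at CHES-1-like, and in 7.97% of arm summits and 1.96% of the windows beside members.

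TATAAA was in 17 member windows (58.6%), against 17.6% of those beside them and 33.5% of arm summits. Tiles across the CHES-1-like and CG1677 regions held TATAAA in 24.4% and 21.7%. ATATAT, a control word of the same bases, was in 20.7% of member windows, against 11.8% beside them and 21.3% of arm summits. ATATAT reads the same on both strands and TATAAA does not, so it is not a matched control. Both are AT-rich, as are the windows, and the part of base composition in these shares was not tested. CAGGTAG, the word of the early embryonic activator Zelda, was in 2 windows (6.90%), both at CHES-1-like, and in 0.954% of arm summits. GACGC, a word bound by FOXN-type forkhead factors, was in 4 windows (13.8%), all at CG1677, and in 11.9% of arm summits. It was more frequent beside the members, in 19.6% of those windows. Tiles across the CHES-1-like and CG1677 regions held it in 13.2% and 16.1%. TGTTTAC, the usual forkhead word, was in no member, in 5.88% of arm summits. It was in 15.7% of the windows beside the members, but in only 4.70% and 3.06% of tiles across the CHES-1-like and CG1677 regions.

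**Figure D5:**
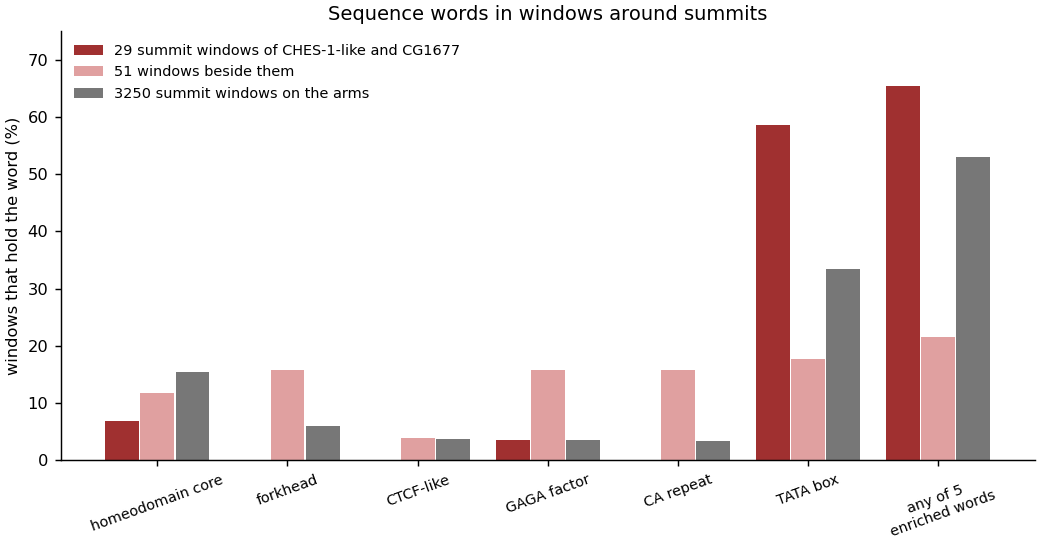
Percent of 201 bp windows that hold each word on either strand (y axis), for the 29 member summits (red), the 51 windows beside them (pink) and all 3250 arm summits (grey). The enriched words and TATAAA are higher at member summits (65.5% and 58.6%) than beside them (21.6% and 17.6%), and the homeodomain core TAATTA is not (6.90% and 11.8%).

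Genes were looked up in gene lists of the forkhead family, of cardiac progenitors and of nuclear RNA factors. A gene was counted as bound when a summit lay in it or within 2 kb. Of all protein-coding genes, 26.5% were bound in this sense. Among 17 forkhead family genes, 4 were bound (23.5%). CHES-1-like is 1 of these and was picked for its summits, so the share is not read against that background. The 4 were CHES-1-like with 13 summits, and FoxL1 (highest signal 83.9), the gut and salivary gland gene fkh (67.7) and the segmentation gene slp2 (66.6) with 1 each. The count at CHES-1-like is the one it was picked for. Its partner jumu, named here after its value was seen, had 0 summits.

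Of 20 cardiac progenitor genes, 9 were bound (45.0%, median length 7.17 kb against 2.16 kb for all genes, and the part of length was not tested). The highest were fz, a Wnt and planar polarity receptor gene with 7 summits (229.5), the cardiac homeobox gene tin (224.7, in its promoter), the zinc finger gene zfh1 (218.9) and the muscle RNA-binding gene how (135.4). The highest fz peak lay nearest to the start of another gene. So did the highest peaks of Doc1, Doc2 and stumps, which are bound genes named here after their values were seen. The part of neighbouring genes in this share was not tested. In the replicates, the tin peak had heights of 136.4 and 91.5. The how peak overlapped no peak of the replicate 1 ranked list and had a height of 73.2 in replicate 2.

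Of 16 genes of the nuclear cap-binding complex, the RNA exosome and other nuclear RNA factors such as Nab2 and ZC3H3, both among those bound and named here after their values were seen, 9 were bound (56.2%), each by 1 summit. The annotation used here does not tie CG1677 to these genes, so the list is only a neighbouring topic. The highest were Rrp40 (251.9), Rrp46 (107.4), Rrp4 (105.1), all exosome subunits, and Cbp20 (103.8), the small subunit of the cap-binding complex. The Cbp20 peak was nearest to its own start, and those of the 3 exosome genes were in promoters nearest to the start of a neighbour. Some of the other bound genes also had their peak nearest to a neighbour's start. With a flank of 0 kb, 0 of the 16 genes were bound, against 1313 of all 13968 protein-coding genes, so the share rests on the flank. The part of neighbouring promoters in this share was not tested.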

How the data were processed

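The authors deposited 8 peak lists on dm6, per the labels and the readme files deposited with the samples. Each of 2 replicates has 1 list thresholded on IDR and 1 ranked list, and the other 4 lists are series-wide. The deposited signal value gives peak height on a scale that is not stated, the deposited score is a whole number from IDR, and the ranked lists also hold the authors' deposited −log10 global IDR. Aligner and peak caller: not given in the sources used here. Read depth is unknown.

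The members and all lists, words and named genes were chosen with earlier results of these data known. Summits (start plus offset) were compared with Ensembl release 115 genes (BDGP 6.54), and sequence came from the RefSeq Release 6 genome. On all 7 arms, every peak ended within the reference length. Replicate heights are those of the highest peak overlapping by at least 1 bp in each replicate's ranked list. Promoters were 500 bp either side of a protein-coding start, and windows 100 bp either side of a summit. Genes named are the members, genes that hold or have the nearest start to a member summit, the 5 genes with most summits, the 3 closest to each member in summit density, and up to 4 per list with the highest peak. Other names are marked. Python 3.11.15, numpy 2.4.6, scipy 1.17.1, matplotlib 3.10.9 and blastn 2.17.0 were used, and the counting was tested on simulated data. No test between groups was made, since there is 1 group. As alternatives, the counts were repeated with the second series-wide list, with either replicate alone, with the highest 50% of peaks, and with other windows, promoters and flanks.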

Additional observations from a re-analysis of the deposited data

How the results depend on the processing

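Over 60 alternative values, 47 stayed within the limits set for a change and 13 did not. Some of the 47 could not change, since no main-list member summit lay in the flanks. A stricter identity also could not raise a count of 0 matching windows. The 47 include falls from 16 to 11 summits at CG1677 and from 13 to 10 at CHES-1-like. With the 50% of peaks with the highest signal, CHES-1-like held 6 summits (13 as reported), CG1677 held 8 (16), and 92.9% of members were in both replicates' lists (55.2%). Using 1 replicate's own list in place of the main list gave 8 to 11 summits at CG1677 and 1 to 4 bound forkhead genes. Counting over the span of the other CG1677 transcripts, an alternative chosen after seeing the data, gave 5. ACAGTG was in 3 windows of 50 bp either side (9 at 100 bp). Promoters of 250 and 1000 bp held 1 and 8 summits (4). A flank of 0 kb left 1 forkhead gene, CHES-1-like itself, and 0 cap-binding and nuclear RNA genes bound. One of 10 kb gave 8 and 16, against 4 and 9 as reported. Of all 13968 protein-coding genes, 1313 held a summit at a flank of 0 kb. The share of all genes was not counted at 10 kb or in the replicates' lists, so nothing is read from those counts. The settings named here change the area counted or the number of peaks by construction.

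No paired analysis was possible because the only group has 2 replicates and no result comes from a test. No depth is known, so heights carry no counting error, and a site missing from a list was not called there rather than shown to be unbound.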
